A study of Mus musculus with 20 samples.

Results

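The 6 tumors of a mouse model of CIC-DUX4 sarcoma (CDS) were compared with embryonic mesenchymal cells (eMC) that had received an empty retrovirus, measured on 4 arrays. The arrays were taken by their titles, CDS 1 to 6 and eMC empty 4 to 7, which are 10 of the 20 arrays of the series. Every probe set with a single gene symbol was eligible, 28898 of the 45037 that are not controls, and 12343 genes were tested. The CDS tumors arose from eMC that had been given pMYs-CIC-DUX4-IRES-GFP, and grew as untreated subcutaneous masses in Balb/c nude mice. The eMC empty cells, labelled primary mesenchymal cells, carried pMYs-IRES-GFP and were harvested 48 hours after transduction from Iscove's modified DMEM with 15% FBS. The other 10 arrays, 6 Ewing sarcoma (ES) tumors from the same kind of host and 4 of eMC CIC-DUX4 at 48 hours, enter only where a gene's level there is given. Tumor and culture differ in the fusion gene, in growth inside a mouse and in the presence of host cells, and these cannot be told apart in this comparison. Whether the 4 eMC empty arrays came from separate cultures, or the 6 tumors from separate transductions, is not told by the labels, so the p-values measure only the spread between these samples.

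CIC is a DNA-binding repressor of the HMG-box family. It holds down genes that receptor tyrosine kinase signalling switches on, among them the PEA3 group of ETS transcription factors and inhibitors that feed back on the MAPK pathway. In CIC-DUX4 most of CIC is joined to the C-terminal part of DUX4, which turns the repressor into an activator of the same genes. The human sarcoma that carries this fusion is a small round cell tumor of soft tissue, and high ETV4 is used as a marker for it. Nude mice lack a thymus and so most mature T cells, while their vessels, macrophages and muscle are intact and can be part of a subcutaneous mass.

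Values below are log2 signals after quantile normalization, which gives all 20 arrays the same distribution. A gene was called higher ("rose") or lower ("fell") at a Benjamini-Hochberg adjusted p under 0.05 from limma together with a log2 difference of at least 1. In the CDS tumors 2164 genes rose (17.5% of those tested) and 2369 fell (19.2%), 36.7% in all, and the median difference over all genes was -0.10. Values of the groups did not overlap for 2531 genes in the higher direction (20.5%) and for 2994 in the lower (24.3%). The scale matters for the balance between directions. Of the called genes 47.7% were higher after quantile normalization, 71.6% on the values as deposited and 59.7% after median scaling, which brings every array to one median, and the median difference over all genes moved from -0.10 to 0.89 and 0.18. On the deposited values, with each gene read from the same probe set, 1793 genes rose (14.5%) and 711 fell (5.76%). Calls made on both the quantile and the deposited scale numbered 1586 higher and 517 lower, with 0 genes called in opposite directions, while 774 of the 2369 lower genes had a positive difference as deposited. The genes named below as lower were called on both scales unless the sentence says otherwise, and a list's counts on the other scales are added where one of them is over 1.5 times apart from the main one. Each list count below is to be read beside the shares over all tested genes, 17.5% higher and 19.2% lower. A count near these shares is no result about its list.

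**Figure D1:**
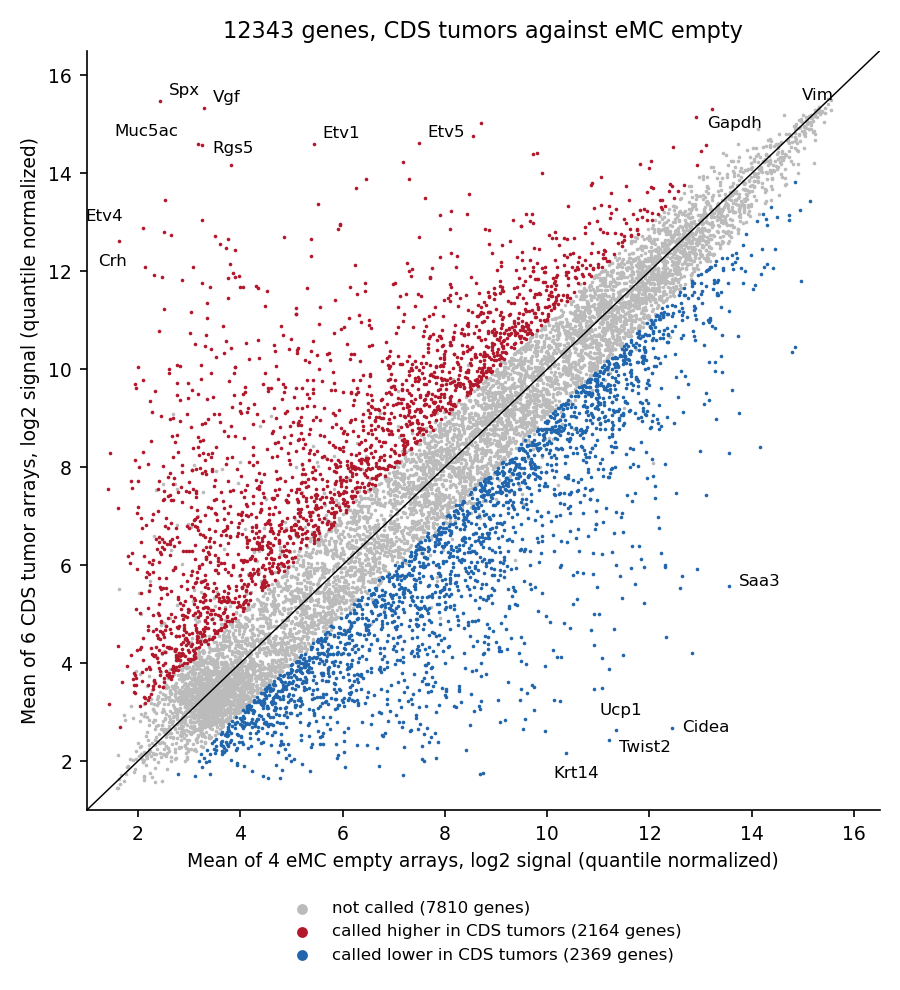
Mean log2 signal of the 6 CDS tumors against that of the 4 eMC empty arrays for 12343 genes, with the 2164 genes called higher in red, the 2369 called lower in blue and the rest in grey. Spx, Vgf, Muc5ac and Etv4 sit at the upper left, bright in tumors and dim in eMC empty, and Cidea, Ucp1, Twist2 and Krt14 at the lower right.

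**Figure D2:**
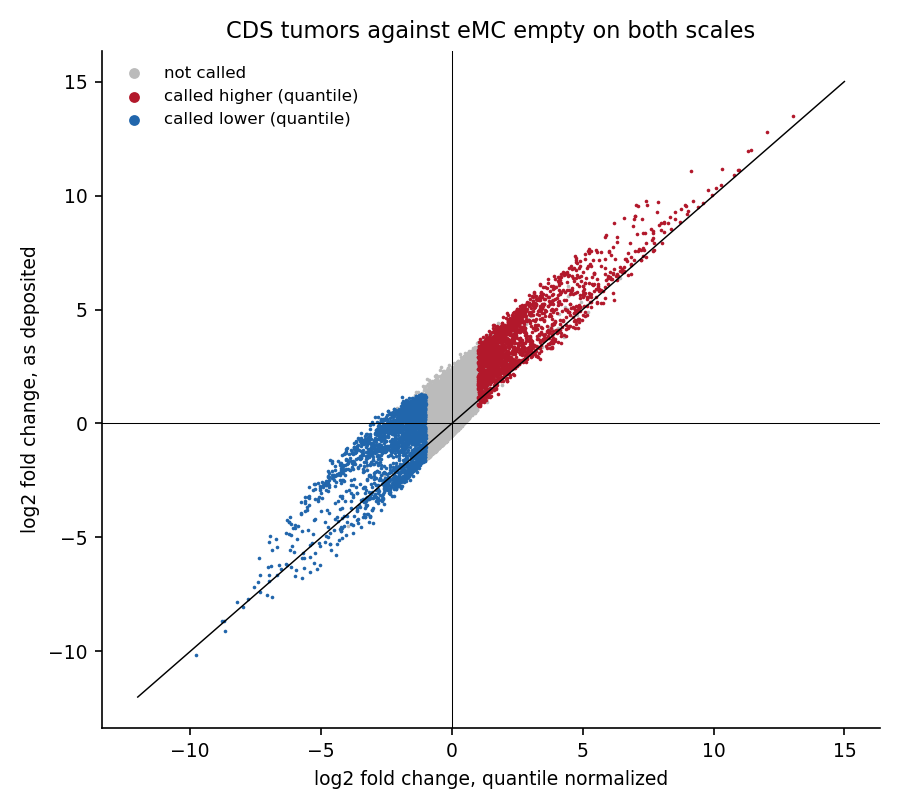
Log2 fold change of each of 12343 genes after quantile normalization (horizontal) against that on the deposited values (vertical), coloured by the call after quantile normalization, with the line of equal values. Most points lie above the line, and 774 of the 2369 genes called lower (blue) have a positive fold change as deposited.

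Each of the 10 arrays compared held a dim and a bright population of probe sets, separated by a dip in the density of its signals. No usable dip was found for eMC CIC-DUX4 array 6. Between 11.7% and 57.3% of probe sets lay above the dip in CDS tumors and between 11.1% and 26.9% in eMC empty. Where all arrays of the dimmer group lay below their dip, only a lower limit is given for the fold ("at least"), which sets the mean of the bright group against the mean of the dips of the dim group, each raised to the gene's own value where that was higher; where that limit was under 1 no size is given. This held for eMC empty in 1349 of the 2164 higher genes and for the tumors in 251 of the 2369 lower genes, and 206 called genes were below the dip on all 10 arrays. List medians use measured values, dim ones included. Correlations over the tested genes were 0.902 to 0.982 between tumors and 0.991 to 0.994 between eMC empty arrays. The excess of the 3' over the 5' control probe sets of Actb, a sign of RNA shortening, was 0.799 ± 0.363 (SD, n = 6) log2 units in tumors and 0.169 ± 0.0321 (n = 4) in eMC empty (exact two-sided permutation test, p = 0.019, adjusted p = 0.0475 over 5 array measures), and was highest in CDS 5 and 6. Without those 2 tumors, an alternative chosen after seeing the data, 2160 genes rose and 2234 fell. The part of RNA shortening in single genes was not tested.

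Members of a list of CIC target genes were among the highest genes of the tumors. Of 22 tested CIC target genes 19 rose and the other 3 were not called, with a median difference of 4.25 against -0.10 over all genes. Values did not overlap in the higher direction for 20 of them. As deposited 18 rose, after median scaling 13 rose, and 19 rose both without CDS 3, 4 and 5 and without CDS 5 and 6. The list was drawn up with results of these data known, so its counts and median are a description and no independent support.

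All 3 PEA3 factors, ETS transcription factors that drive proliferation and migration programs, were among them. Etv4 measured 12.42 to 13.61 in the 6 tumors (median 12.73) and 2.03, 2.43, 1.92 and 2.08 in eMC empty. This was at least 16.6-fold higher (adjusted p = 5.96e-11). Etv1 ran from 14.29 to 14.81 (median 14.65) against 5.88, 5.59, 5.05 and 5.26, at least 54.2-fold higher (adjusted p = 5.77e-12). For both genes all eMC empty arrays were below their dip and every tumor was above its own, so the floor and not the measured level of eMC sets the fold. Etv5 stood between 14.41 and 14.90 in tumors (median 14.64) and at 7.58, 7.54, 7.36 and 7.5 in eMC empty, where 1 of 4 arrays was above its dip. Its log2 difference was 7.13 ± 0.12 (SE), with an adjusted p of 1.28e-12. The 2 groups were far apart for all 3 factors.

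Secreted products of the target list were bright in the tumors, with Vgf near the top of the signal range. Vgf, a neuropeptide precursor induced by growth factors, measured 15.14 to 15.48 (median 15.34) in tumors against 3.23, 3.08, 3.67 and 3.23 in eMC empty, at least 90.4-fold higher (adjusted p = 1.23e-13). Muc5ac, a gel-forming mucin of airway and stomach, ran from 14.26 to 15.07 (median 14.52) against 3.36, 3.32, 3.10 and 2.92, at least 54.3-fold higher (adjusted p = 1.51e-12). Crh, the hypothalamic hormone that starts the stress axis, ran from 11.46 to 13.22 (median 12.75) against 1.71, 1.65, 1.54 and 1.6, at least 13.7-fold higher (adjusted p = 2.07e-10). In each case all 6 tumors were above the dip and all 4 eMC empty arrays below it. Kpna7, an importin alpha otherwise known from oocytes and early embryos, ran from 13.18 to 14.13 (median 13.27) against 2.55, 2.40, 2.55 and 2.63, at least 24.7-fold higher (adjusted p = 8.22e-12). Spx, which encodes the peptide spexin and is not in the target list, had the highest such limit of all named genes. Its signal was 15.35 to 15.62 in tumors (median 15.44) against 2.57, 2.70, 2.38 and 2.12, at least 99.7-fold higher (adjusted p = 1.23e-13). The neuropeptides did not rise as a class. Of 13 tested genes for neuropeptides and dense-core granules 3 rose (Spx, Vgf and Crh) and 3 fell (Cck, Tac1 and Cpe), beside 17.5% and 19.2% of all tested genes. Cck was listed at 1.58 to 1.93 in tumors against 9.20, 8.37, 8.92 and 8.49 in eMC empty, at least 4.80-fold lower (adjusted p = 2.76e-10). For Cck only eMC empty arrays 6 and 7 were above their dip.

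Inhibitors that feed back on the MAPK pathway rose beside the ETS factors. Dusp6, the cytoplasmic ERK phosphatase, measured 14.13 to 14.89 (median 14.31) in tumors and 9.53, 9.75, 9.82 and 9.77 in eMC empty, a difference of 4.67 ± 0.15 (adjusted p = 2.26e-10). Dusp4, its nuclear relative, ran from 12.71 to 13.87 (median 13.03) against 7.61, 8.03, 8.19 and 7.80, a difference of 5.23 ± 0.22 (adjusted p = 3.11e-09). Spry4 and Spred3, which act between the receptor and RAF, differed in how far eMC empty expressed them. Spry4 ran from 12.61 to 13.84 (median 13.24) against 8.38, 7.94, 8.10 and 8.12, a difference of 5.09 ± 0.23 (adjusted p = 5.21e-09), while Spred3 ran from 11.12 to 12.33 (median 11.43) against 4.67, 4.40, 4.42 and 4.64, at least 6.75-fold higher (adjusted p = 1.8e-09). For Dusp4 and Spry4 only eMC empty array 7 was above its dip, so most of their baseline values were dim. Spry2 was not called. It measured 11.25 to 12.26 in tumors and 11.34, 11.24, 11.20 and 11.14 in eMC empty, a difference of 0.51 ± 0.19 that turned to -0.14 after median scaling.

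The 3 targets that were not called, Spry2 among them, were above the dip on all eMC empty arrays, other than Plau on 1 of 4. Hmga2, a chromatin architecture protein of embryonic mesenchyme, measured 13.31 to 13.73 in tumors against 12.99, 13.06, 13 and 12.92, a difference of 0.55 ± 0.10 that stayed under the fold threshold and was -0.55 after median scaling. Other Hmga2 probe sets differed by 0.77, 0.2 and 1.79, and the last was called higher. Plau, the urokinase gene, ran from 8.65 to 10.08 against 10.52, 10.30, 10.55 and 10.39, with every tumor below every eMC empty array, a difference of -0.96 ± 0.28, and was not called. Another Plau probe set was called lower, at -2.5 ± 0.27. Cic itself rose, from 7.82, 7.71, 7.73 and 7.5 in eMC empty to 8.14 to 10.19 in tumors (median 8.85), by 1.24 ± 0.34 (adjusted p = 0.00948), but by 0.98 without CDS 6, its highest tumor, and so not past the fold threshold there. Whether that probe set reads the fusion transcript was not tested. Only 1 gene of the DUX4 and mouse Dux cleavage-stage list, which follows the program of early embryos, had enough signal to be tested, and it was not called.

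**Figure D3:**
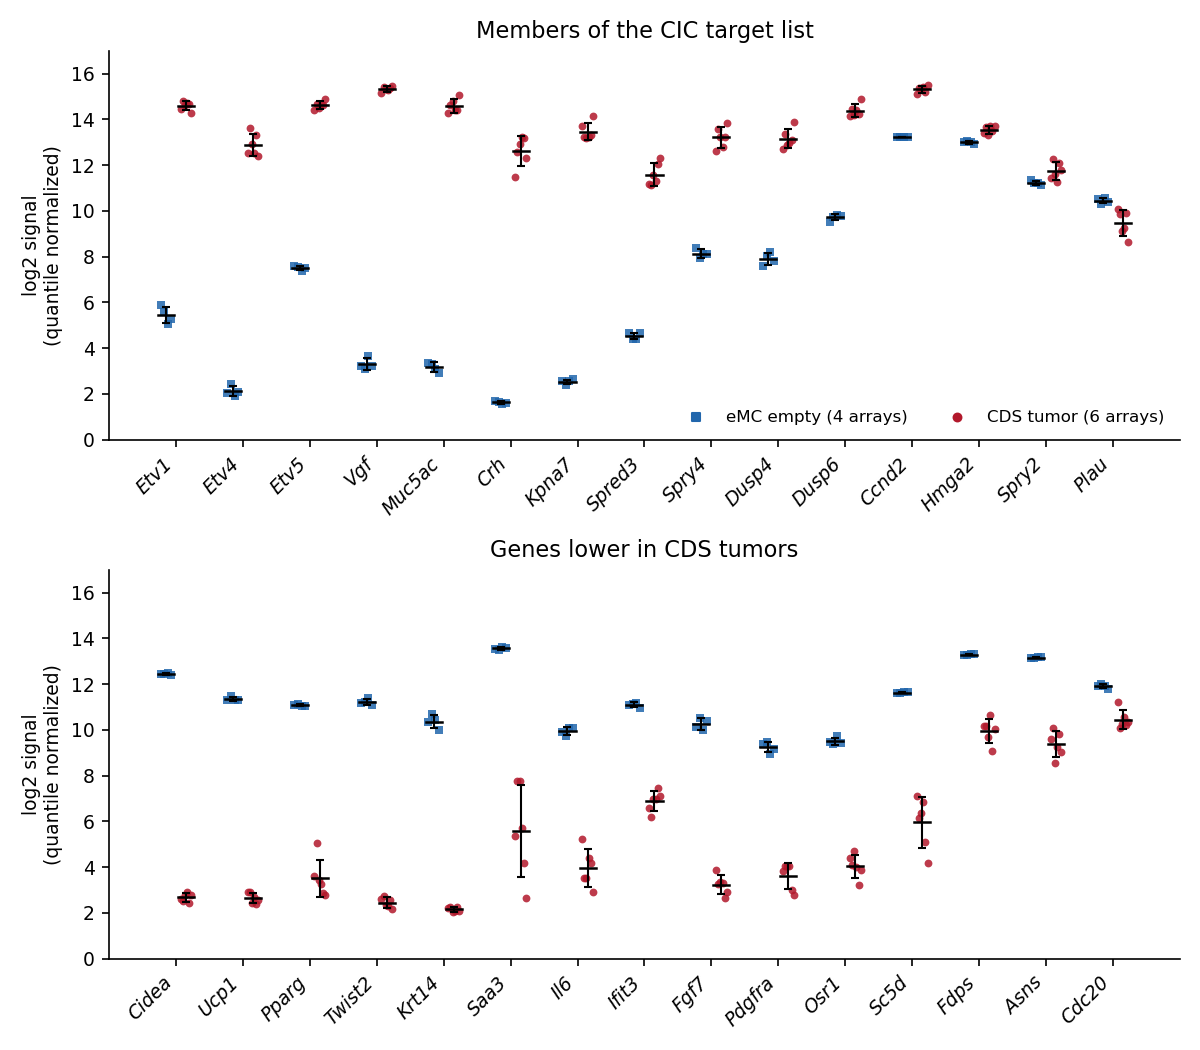
Log2 signal of selected genes on each of the 6 CDS tumor and 4 eMC empty arrays, one point per array with the group mean and SD, for 15 CIC target genes (top) and 15 lower genes (bottom). Etv1, Etv4, Etv5 and Vgf are above 12 in every tumor and below 8 on every eMC empty array. On the probe sets shown, Hmga2, Spry2 and Plau lie close together in the 2 groups.

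CIC recognises an octamer, TGAATGAA or TGAATGGA, so the promoters of the tumor-high genes were searched for it. The search covered both strands (reverse complements TTCATTCA and TCCATTCA, with overlapping copies counted separately) of the 250 bases before each RefSeq start site on GRCm38.p6. Of the genes called higher with an entry 61 of 1710 (3.57%) held an octamer, and of those higher by at least 5 log2 units 10 of 132 (7.58%) did. The share was 1.23% among genes called lower (23 of 1865), 1.34% among those not called (85 of 6339), 1.70% among all tested genes (169 of 9914) and 2.07% over all 32851 windows. From the CIC target list 1 of 10 tested members with an entry held one, Spred3, and the entries of Etv1, Etv5, Kpna7 and Dusp6 held neither word in this stretch. A match describes the letters and is no evidence of binding, and no test was made. The 4 genes with the largest rise among those with an octamer are shown because they hold the letters that CIC is known to bind. Cell type markers, clone names and the windows of 1 chromosome were left out of this choice. Fgfbp3, Upp1 and Cdc14a were chosen after their values were seen. Capitals mark the octamer, read 5' to 3' on the gene's strand, with the last base next to the start site.
Fgfbp3: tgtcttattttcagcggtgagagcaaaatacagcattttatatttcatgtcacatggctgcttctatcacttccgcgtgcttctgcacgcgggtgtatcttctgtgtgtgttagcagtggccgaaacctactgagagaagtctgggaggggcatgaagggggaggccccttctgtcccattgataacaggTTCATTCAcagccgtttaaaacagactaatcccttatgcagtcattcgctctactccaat
Spred3: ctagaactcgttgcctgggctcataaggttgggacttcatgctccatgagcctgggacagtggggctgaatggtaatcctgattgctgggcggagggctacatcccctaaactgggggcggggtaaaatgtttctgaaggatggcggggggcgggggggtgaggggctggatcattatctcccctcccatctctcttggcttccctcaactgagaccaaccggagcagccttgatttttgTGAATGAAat
Upp1: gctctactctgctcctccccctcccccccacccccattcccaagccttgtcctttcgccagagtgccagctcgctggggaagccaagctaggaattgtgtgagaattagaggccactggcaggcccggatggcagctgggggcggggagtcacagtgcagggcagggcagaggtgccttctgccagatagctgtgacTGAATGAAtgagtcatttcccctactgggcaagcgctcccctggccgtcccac
Cdc14a: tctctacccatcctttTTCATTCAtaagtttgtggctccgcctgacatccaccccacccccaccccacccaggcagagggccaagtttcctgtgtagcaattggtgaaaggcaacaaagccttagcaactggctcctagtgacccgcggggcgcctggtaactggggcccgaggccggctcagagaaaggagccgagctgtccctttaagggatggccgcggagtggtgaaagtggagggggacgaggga
These stretches lie at chr19:36919600-36919849 on the minus strand for Fgfbp3, chr7:29168648-29168897 on the minus strand for Spred3, chr11:9117758-9118007 on the plus strand for Upp1 and chr3:116424073-116424322 on the minus strand for Cdc14a. All 4 hold TGAATGAA, on the gene's own strand in Spred3 and Upp1 and on the opposite strand in Fgfbp3 and Cdc14a, where it reads TTCATTCA. The octamer begins 60 bases before the start in Fgfbp3, 10 in Spred3, 53 in Upp1 and 234 in Cdc14a.

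The genes behind these promoters were bright in tumors and dim in eMC empty. Fgfbp3, which releases fibroblast growth factors from the matrix, measured 12.16 to 12.99 (median 12.38) against 3.54, 3.63, 3.33 and 4.42, at least 12.5-fold higher (adjusted p = 2.2e-10). Upp1, a uridine phosphorylase of pyrimidine salvage, ran from 11.83 to 12.89 (median 12.35) against 5.31, 5.85, 5.14 and 5.25, at least 11.2-fold higher (adjusted p = 6.73e-10). The phosphatase gene Cdc14a ran from 9.79 to 11.68 (median 10.13) against 3.56, 3.14, 3.80 and 4.27, at least 2.84-fold higher (adjusted p = 5.54e-08). They parted in the ES tumors: Upp1 averaged 12.15 there and 12.31 in CDS, a difference (CDS minus ES) of 0.16 ± 0.44 that was not called (adjusted p = 0.798), while Fgfbp3 averaged 3.79, under the lowest dip of the ES arrays, and was called (adjusted p = 1.17e-09).

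Cell cycle genes moved in both directions. Of 19 cyclins, their kinases and inhibitors 7 rose and 5 fell, with a median difference of -0.03, and as deposited 7 rose while the 5 did not pass the test. After median scaling 1 rose. The D cyclins, which couple growth factor signals to entry into the cycle, were near the top of the range. Ccnd1 measured 14.94 to 15.21 in tumors (median 15.17) against 12.98, 12.84, 12.91 and 12.91 in eMC empty, a difference of 2.23 ± 0.07 (adjusted p = 1.56e-10). Ccnd2 ran from 15.09 to 15.49 (median 15.34) against 13.21, 13.22, 13.22 and 13.24, a difference of 2.09 ± 0.08 (adjusted p = 9.39e-10). Neither passed the test after median scaling, where the differences were 1.36 and 1.17. The E cyclins, which act at the start of replication, did not move alike: Ccne2 rose by 2.47 ± 0.24 (adjusted p = 4.53e-06) and Ccne1 differed by -1.13 ± 0.45 (adjusted p = 0.0506), by 0.67 as deposited. Inhibitors of the cycle also went both ways. Cdkn2a, which encodes p16 and p19Arf, measured 7.18 to 9.58 (median 8.16) against 3.34, 3.36, 2.96 and 3.47, all 4 below the dip (adjusted p = 6.42e-06), and Cdkn1b (p27) and Cdkn1c (p57) rose by 2.15 ± 0.17 and 2.08 ± 0.12. Cdkn2b, which encodes p15, fell by 1.90 (SE 0.55, adjusted p = 0.0114), without a call as deposited or without CDS 3, 4 and 5 (-0.95, adjusted p = 0.058).

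The machinery of division itself did not rise. Of 30 genes of DNA replication and mitosis 8 fell and 22 were not called, with a median of -0.46, and as deposited 2 fell, neither of them after median scaling. Over all tested genes 19.2% fell and the median was -0.10. Cdc20, the activator of the anaphase-promoting complex, measured 10.09 to 11.23 (median 10.30) in tumors against 11.91, 11.99, 11.91 and 11.79, a difference of -1.46 ± 0.21 (adjusted p = 9.89e-05). The mitotic kinesin Kif20a fell by 2.85 and the kinase Aurka by 1.54 after quantile normalization, both without a call as deposited. Cdk6 and Rb1, which meet in the restriction point, were lower by the quantile scale only, at -2.70 ± 0.39 and -2.09 ± 0.56.

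Growth factors and their receptors moved in both directions. Of 32 tested genes 11 rose and 17 fell (median -1.59), as deposited 9 rose and 7 fell, and after median scaling 4 and 7. Among receptors Igf1r measured 11.94 to 13.87 (median 12.86) in tumors against 8.83, 8.97, 8.75 and 8.94, a difference of 3.98 ± 0.28 (adjusted p = 2.99e-07). The stem cell factor receptor gene Kit ran from 8.34 to 10.48 (median 9.26) against 4.47, 3.78, 4.29 and 4.56, at least 1.37-fold higher (adjusted p = 6.73e-07). Pdgfra, the receptor that marks embryonic mesenchyme, went the other way, at 2.76 to 4.05 (median 3.93) against 9.36, 9.45, 8.96 and 9.18, a difference of -5.62 ± 0.34 (adjusted p = 7.06e-08), which did not pass the test as deposited (-3.23, adjusted p = 0.0514). Ligands were split as well. Vegfa, which attracts endothelium, rose from 8.75, 8.58, 8.74 and 9.04 to 12.09 to 13.74 (median 12.82), by 4.08 ± 0.29 (adjusted p = 3.01e-07). Another Vegfa probe set differed by -0.46 ± 0.45 and was not called. Nrg1, a ligand of the ERBB receptors, rose from values below the dip on all eMC empty arrays (adjusted p = 2.43e-06). Fgf7, which mesenchyme supplies to epithelium, measured 2.66 to 3.85 (median 3.29) in tumors against 10.14, 10.51, 9.97 and 10.39, a difference of -7.03 ± 0.29 (adjusted p = 2.71e-09). Fgf5 was below the dip in all 6 tumors, at 1.84 to 2.09 against 7.32, 7.74, 7.53 and 7.80, at least 2.17-fold lower (adjusted p = 3.03e-10). Of the eMC empty arrays only number 7 was above its dip for Fgf5. Among 16 genes of IGF binding and imprinting 5 rose and 7 fell; as deposited the balance turned, to 6 and 3, and after median scaling 2 rose and 4 fell. Igfbp2 rose by 5.89 ± 0.27 (adjusted p = 5.38e-09), from 7.30, 7.90, 7.95 and 7.31 to 12.65 to 14.10 (median 13.68). For Igfbp2 too, only eMC empty array 7 was above its dip.

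Some other ETS factors rose beside the PEA3 group. In a mixed list of ETS and Ewing sarcoma genes 6 of 15 rose and 3 fell, with a median of 0.76. The risers were the ETS factors Fli1, Elf3, Ets1 and Erg, and also Prkcb and Ccnd1, which are not ETS factors. Steap1, Cav1 and Jak1, which fell, are not ETS factors either. Fli1, an ETS factor of blood and endothelium and the partner in the Ewing fusion, measured 12.66 to 13.68 (median 12.86) in tumors against 6.06, 5.47, 6.38 and 5.91, at least 17.4-fold higher (adjusted p = 4.46e-10). Erg, its close relative and a marker of vessel lining, was dim, at 3.23 to 5.37 (median 4.09) against 2.23, 2.58, 2.72 and 2.38, and its call (adjusted p = 0.00103) was not made as deposited. Ewsr1 differed by 0.76 ± 0.14, under the fold threshold, and by -0.21 after median scaling.

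Genes of blood vessels were bright in tumors and dim in eMC empty. All 14 tested endothelial markers rose, with a median of 4.30, and 12 did so as deposited, 9 after median scaling and 13 without CDS 3, 4 and 5. Other probe sets of the marker Flt1 differed by 0.21 and -0.85 and were not called. Their summed linear signal was 18601 to 25559 in tumors and 282 to 371 in eMC empty. Cdh5, the cadherin of endothelial junctions, measured 11.50 to 12.47 (median 12.13) against 3.20, 2.75, 3.21 and 3.13, at least 9.51-fold higher (adjusted p = 1.02e-10). Plvap, which forms the diaphragms of fenestrated capillaries, ran from 12.88 to 13.59 (median 12.93) against 3.38, 3.04, 3.29 and 3.27, at least 18.4-fold higher (adjusted p = 8.22e-12). The endothelial transcription factor gene Sox18 ran from 10.57 to 11.13 (median 10.71) against 3.00, 2.97, 3.04 and 3.09, at least 3.74-fold higher (adjusted p = 1.27e-10). The tumors lay close together for all 3 genes, within 1 log2 unit of each other. In bulk RNA, fewer cells of a type and less RNA per cell cannot be told apart, and host and tumor transcripts of a mouse tumor in a mouse cannot be told apart either.

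Of 5 pericyte markers 3 rose, Rgs5, Kcnj8 and Notch3 (the last by 1.07, and by 0.84 to 1.08 without its call when CDS 1, 3, 4 or 5 or eMC empty 6 or 7 was left out), and 1 rose after median scaling. The other 2 were not called, and the list median was 1.07. The summed signal was 22613 to 28333 against 677 to 1034, but in every tumor most of that sum was Rgs5 alone. Rgs5, a signalling regulator of vessel-wall cells, measured 14.38 to 14.73 (median 14.59) against 2.93, 3.31, 3.19 and 3.61, at least 53.7-fold higher (adjusted p = 5.43e-13). Aplnr, the apelin receptor of sprouting vessels, ran from 12.34 to 13.17 (median 12.87) against 2.68, 2.39, 2.45 and 2.53, at least 15.7-fold higher (adjusted p = 8.22e-12). Hemoglobin was detected too: Hba-a1, a hemoglobin chain, measured 12.14 to 15.26 (median 14.02) against 5.64, 5.98, 7.55 and 6.64, at least 33.2-fold higher (adjusted p = 2.51e-07), and was the 1 called gene of 3 tested erythroid markers. CDS 6 was lowest and CDS 2 highest for it.

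Macrophage markers rose less evenly. Of 16 genes 11 rose and 1 fell, with a median of 2.85, and the summed signal of 15568 to 63995 in tumors overlapped the 21008 to 21663 of eMC empty. As deposited 10 rose and 6 did so after median scaling. C1qa, a complement chain made by tissue macrophages, measured 9.97 to 12.85 (median 12.28) against 7.39, 7.19, 7.86 and 6.75, at least 9.0-fold higher (adjusted p = 7.14e-06). Aif1, a cytoskeletal protein of macrophages, ran from 5.66 to 8.98 (median 8.26) against 2.84, 3.15, 3.10 and 3.16, all 4 below the dip (adjusted p = 1.7e-05). The scavenger receptor gene Cd163 ran from 3.36 in CDS 6 to 10.66 in CDS 2 against 1.99, 2.04, 2.28 and 2.04, and lost its call without CDS 3, 4 and 5 (adjusted p = 0.053). CDS 6 was the lowest tumor for all 3 genes. Cd14, the endotoxin co-receptor, was the 1 marker lower, by 1.86, and its difference was 0.35 as deposited. Of 6 neutrophil markers 3 rose (S100a8, S100a9 and Csf3r) and 1 fell (Camp), and of 5 markers of lymphocytes and natural killer cells 1 rose, Gzma (adjusted p = 0.0315). None of these was called after median scaling. The calls of Csf3r and Camp were not made as deposited, that of Camp was lost without eMC empty 7, and that of Gzma was lost without CDS 4 or any 1 eMC empty array (adjusted p 0.0544 to 0.0699).

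**Figure D4:**
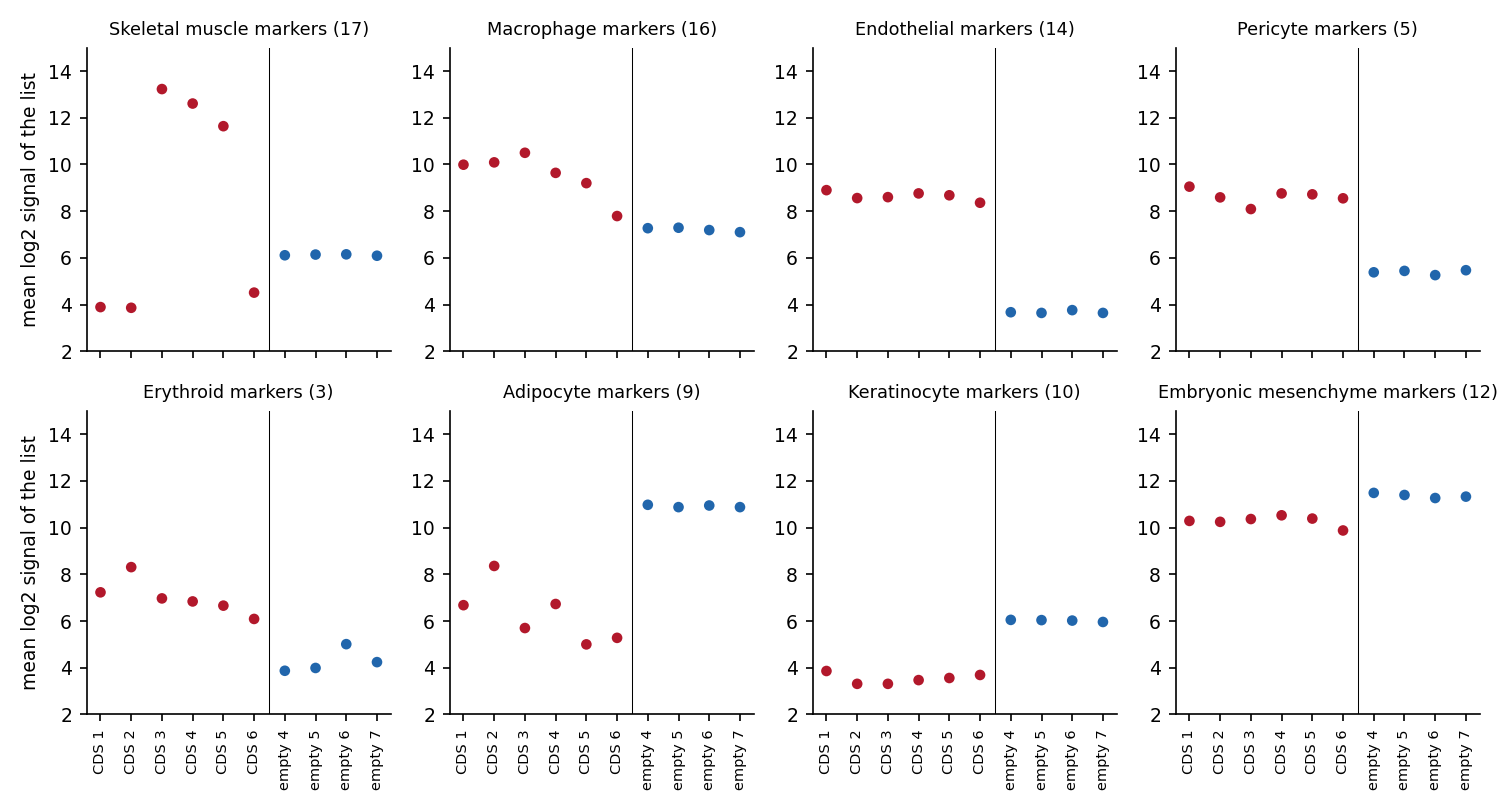
Mean log2 signal of cell type marker lists on each CDS tumor and eMC empty array, one point per array. Endothelial markers sit at 8.36 to 8.90 in tumors and 3.64 to 3.76 in eMC empty, whereas skeletal muscle markers spread from 3.86 to 13.23 among the tumors.

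Genes that low oxygen induces moved in part. Of 23 genes of hypoxia and glycolysis 10 rose and 2 fell (Adm and Pfkp), with a median of 0.60, and as deposited 9 rose and 1 fell, after median scaling 8 and 1. Car9, a carbonic anhydrase induced by HIF, measured 10.84 to 12.53 (median 11.72) in tumors against 3.94, 3.56, 3.29 and 2.89, at least 7.19-fold higher (adjusted p = 6.65e-09). Aldoc, the aldolase of brain, ran from 13.70 to 14.41 (median 14.22) against 3.58, 3.64, 3.79 and 4.32, at least 40.3-fold higher (adjusted p = 5.77e-12). Ankrd37, another HIF target, was more variable, at 5.69 to 9.33 against 3.13, 3.04, 3.10 and 2.75, all 4 below the dip (adjusted p = 3.47e-05). Adm, the vasodilator adrenomedullin and also a HIF target, went the opposite way, at 4.61 to 9.69 (median 6.85) against 12.08, 12.09, 12.14 and 12.30, a difference of -5.17 ± 0.72 (adjusted p = 9.05e-05). Of 26 respiratory chain subunits 2 fell, Cox7a1 by 6.29 and Sdha by 1.02 (by 0.97 without CDS 1, 2 or 5, under the threshold), and the other 24 were not called; as deposited 11 fell, after median scaling 1, and without CDS 3, 4 and 5, which were high in muscle genes, 5. The mean of the 26 was 12.78, 12.66 and 12.20 in CDS 3, 4 and 5, 11.57 to 11.84 in the other tumors and 12.87 to 12.91 in eMC empty, and the part of muscle in this was not tested. Pfkp differed by -0.56 as deposited, without a call.

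Cartilage and joint genes rose in part. Of 18 tested 8 rose and 2 fell, with a median of 1.37; as deposited 7 rose and 1 fell, and after median scaling 4 and 1. Col9a1, a chain of cartilage collagen IX, measured 14.29 to 14.82 (median 14.31) against 9.79, 9.54, 10.08 and 9.85, a difference of 4.59 ± 0.14 (adjusted p = 1.39e-10). Prg4, the lubricin of joint surfaces, ran from 11.67 to 14.02 (median 12.92) against 6.27, 5.79, 6.01 and 5.72, at least 17.4-fold higher (adjusted p = 2.88e-08), and Comp, a matrix protein of cartilage and tendon, was at least 3.20-fold higher (adjusted p = 9.98e-06). Cnmd, the chondromodulin of avascular cartilage, was lower, at 4.37 in CDS 1 and 2.13 to 2.71 in the other tumors against 7.51, 7.28, 8.19 and 7.65, at least 2.27-fold lower (adjusted p = 1.39e-06), and Hapln1, below the dip on all 10 arrays, was called lower on the quantile scale alone. For Cnmd only eMC empty array 7 was above its dip. Among 23 fibrillar collagen and matrix genes 1 rose and 4 fell, and after median scaling 1 and 2. Over all tested genes 17.5% rose and 19.2% fell. Col3a1 averaged 15.19 in tumors and 15.16 in eMC empty (a difference of 0.03 ± 0.12, and -0.45 as deposited).

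Adhesion genes moved mostly upward. Among 25 cadherins, integrins and laminins 12 rose and 3 fell (median 0.97), and 4 rose and 1 fell after median scaling. The risers were 5 integrins, 4 laminins and 3 cadherins, Cdh5 among them. Itga8, a partner of nephronectin in mesenchyme, measured 12.28 to 13.34 (median 12.59) against 5.51, 5.04, 5.62 and 5.35, at least 14.1-fold higher (adjusted p = 3.03e-10). Itgb3, the beta chain of the vitronectin receptor, ran from 10.13 to 11.70 (median 11.50) against 4.38, 5.03, 4.64 and 3.86, at least 5.47-fold higher (adjusted p = 1.67e-08). Cdh1, the epithelial cadherin, was below the dip in all 6 tumors, at 2.35 to 2.78 against 6.65, 6.58, 6.89 and 7.03, where 1 of 4 eMC empty arrays was above its own dip, and was at least 1.24-fold lower (adjusted p = 4.38e-09). Itga3 and Cdh2 also fell after quantile normalization, by 2.17 and 1.57, without a call as deposited or, for Cdh2, without CDS 3, 4 and 5, and as deposited Itga3 differed by 0.40.

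Among the highest genes outside the lists were Clca2 and Per2. Clca2, a regulator of chloride conductance, measured 11.89 to 13.48 (median 12.72) against 2.61, 2.84, 2.69 and 2.45, at least 15.0-fold higher (adjusted p = 2.76e-10). Per2, a repressor in the circadian clock, ran from 11.65 to 12.96 (median 12.02) against 2.11, 2.05, 2.10 and 2.30, at least 9.49-fold higher (adjusted p = 9.17e-11). Every tumor was above its dip for both and every eMC empty array below.

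Fat cell genes had the largest decreases. The eMC empty cultures expressed brown and white fat genes, with a summed signal of the adipocyte markers of 90018 to 92736 against 5260 to 56373 in tumors. Of 9 markers 8 fell, with a median of -3.90, 7 as deposited and 6 without CDS 3, 4 and 5. Cidea, a lipid droplet protein of brown fat, measured 2.44 to 2.93 in tumors (median 2.69) against 12.46, 12.42, 12.49 and 12.40, at least 62.5-fold lower (adjusted p = 3.16e-11). Ucp1, the uncoupling protein that defines brown fat, measured 2.38 to 2.90 (median 2.62) against 11.30, 11.49, 11.31 and 11.32, at least 29.4-fold lower (adjusted p = 9.17e-11). No tumor was above its dip for either. Pparg, the nuclear receptor that drives fat cell formation, ran from 2.80 to 5.05 (median 3.36) against 11.08, 11.14, 11.03 and 11.06, a difference of -7.57 ± 0.41 (adjusted p = 2.95e-08), and CDS 2 was the 1 tumor above its dip.

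Several more lipid genes were among the 12 lowest, and CDS 2 kept part of them. Thrsp, a regulator of fat synthesis, measured 11.80 in CDS 2 and 2.18 to 3.33 in the other tumors against 12.80, 12.88, 12.87 and 12.84, a difference of -8.65 ± 1.59 (adjusted p = 0.000693). Mrap, the melanocortin receptor accessory protein, measured 7.07 in CDS 2 and 2.17 to 3.60 elsewhere against 10.85, 10.88, 11.04 and 10.86, a difference of -7.42 ± 0.80 (adjusted p = 1.03e-05). G0s2, an inhibitor of fat breakdown, measured 7.45 in CDS 2 and 3.04 to 4.59 in the others against 11.47, 11.54, 11.51 and 11.41, a difference of -7.32 ± 0.75 (adjusted p = 6.95e-06). Adipoq, the adiponectin gene, was bright in some tumors, at 13.13 in CDS 2, 11.04 in CDS 1 and 10 in CDS 4 but 4.0 to 6.0 in the rest, against 13.52 to 13.58, a difference of -5.26 ± 1.51 (adjusted p = 0.0112), and -3.62 without a call without CDS 3, 4 and 5 (adjusted p = 0.0637). A pair of enzymes completed the group: Cyp7b1, an oxysterol hydroxylase, fell by 7.07 and Aldh1a7, an aldehyde dehydrogenase, by 7.35.

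Transcription factors of limb and dermal mesenchyme were mostly lower. Of 19 tested 10 fell and 3 rose (Meox1, Foxc1 and Foxc2), with a median of -1.11, and as deposited 4 fell and 2 rose, after median scaling 3 and 2. Twist2, a repressor that keeps mesenchyme undifferentiated, measured 2.15 to 2.75 in tumors (median 2.43) against 11.17, 11.22, 11.39 and 11.08, at least 26.6-fold lower (adjusted p = 9.17e-11). Osr1, a factor of limb connective tissue, ran from 3.22 to 4.71 (median 4.04) against 9.47, 9.38, 9.72 and 9.42, a difference of -5.45 ± 0.31 (adjusted p = 4.78e-08). Tbx18 fell by 3.95 without a call as deposited, and Foxc2, below the dip on all eMC empty arrays, was not called as deposited or without any 1 array other than CDS 1 and 6. In the opposite direction Meox1, a factor of the somites, rose from 6.45, 6.74, 5.14 and 7.40 to a range of 10.33 to 13 (median 11.53), by 5.17 ± 0.51 (adjusted p = 5.24e-06). For Meox1 only eMC empty array 7 was above its dip. Of 12 general markers of embryonic mesenchyme 4 fell (Pdgfra, Prrx1, S100a4 and Ddr2, the last by 1.10 and by 0.86 without CDS 1) and 8 were not called, Vim among them at a mean of 15.16 against 15.23, so vimentin and collagen III, which mark mesenchyme, were bright in both groups. Of 22 Hox genes 8 fell and 2 rose (Hoxd4 and Hoxa7), and these calls rest on the quantile scale; Hoxa7 also lost its call without eMC empty 6.

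Inflammatory genes that eMC empty expressed were low in tumors. Of 21 acute-phase proteins and chemokines 15 fell and 2 rose (Ccl8 and Cxcl14), with a median of -3.43. Saa3, a serum amyloid made by stimulated mesenchyme and macrophages, measured 2.64 to 7.76 (median 5.54) in tumors against 13.55, 13.49, 13.61 and 13.58, a difference of -7.98 ± 0.86 (adjusted p = 1.05e-05). Il6 ran from 2.89 to 5.22 (median 3.85) against 9.92, 9.73, 10.08 and 10.09, a difference of -6 ± 0.41 (adjusted p = 2.53e-07). The monocyte attractant gene Ccl7 ran from 3.53 to 8.56 (median 5.94) against 12.86, 12.90, 12.95 and 12.96, a difference of -6.99 ± 0.75 (adjusted p = 1.04e-05). F3, the tissue factor that starts coagulation, fell by 7.80 (SE 0.62). Ccl8, a chemokine of resident macrophages, measured 11.05 in CDS 6 and 13.61 to 14.59 in the other tumors against 8.36, 8.76, 8.59 and 8.23, a difference of 5.09 ± 0.56 (adjusted p = 1.19e-05). It thus rose while its neighbour in function Ccl7 fell.

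Interferon-response genes followed on the quantile scale, where 8 of 15 fell with a median of -2.45, and 3 fell as deposited and after median scaling. Those called as deposited were Usp18, Ifit3 and Ifit1. Usp18, which shuts off the interferon receptor, measured 4.86 to 7.72 (median 6.84) against 11.31, 11.23, 11.31 and 11.38, a difference of -4.65 ± 0.48 (adjusted p = 7.14e-06). Ifit3 and Ifit1, which bind viral RNA or its partners, differed by -4.21 ± 0.26 and -3.39 ± 0.27. The eMC empty cells were harvested 48 hours after a retrovirus, and the part of that exposure in these differences cannot be told apart from the rest.

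Genes of sterol synthesis were mostly lower. Of 14 enzymes and regulators 12 fell, with a median of -2.41, 6 as deposited and 4 after median scaling. Sc5d, which acts late in cholesterol synthesis, measured 4.18 to 7.09 (median 6.26) against 11.60, 11.62, 11.65 and 11.64, a difference of -5.68 ± 0.50 (adjusted p = 2.15e-06). Other Sc5d probe sets differed less, by -2.19, called lower, and by -0.82, not called. Fdps, which makes farnesyl diphosphate, ran from 9.08 to 10.65 (median 10.09) against 13.26, 13.25, 13.30 and 13.32, a difference of -3.32 ± 0.25 (adjusted p = 4.51e-07), and Fdft1, the first enzyme committed to sterols, fell by 3.23 (SE 0.47). Genes of the amino acid stress response were lower as well: 10 of 18 genes of unfolded protein and amino acid stress fell and 1 rose (Sdf2l1, by 1.02, and by 0.85 to 0.99 when CDS 1, 2 or 6 or eMC empty 5 or 7 was left out), with a median of -1.33. As deposited 8 fell and after median scaling 3. Asns, the asparagine synthetase, measured 8.55 to 10.06 (median 9.42) against 13.14, 13.14, 13.18 and 13.18, a difference of -3.77 ± 0.26 (adjusted p = 2.39e-07). Trib3, a feedback inhibitor of that response, fell by 3.86 without a call as deposited, and the cystine transporter gene Slc7a11 was below the dip on every array of both groups.

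Keratinocyte markers were present at low levels in eMC empty and were lower in tumors. Of 10 tested 6 fell, with a median of -1.38, and 2 fell as deposited, Krt14 and Dsp, and 2 after median scaling. Krt14, a keratin of basal epidermis, measured 2.03 to 2.27 (median 2.16) in tumors against 10.32, 10.67, 10.43 and 10.01, at least 14.7-fold lower (adjusted p = 1.02e-10). Dsp, which anchors keratin at desmosomes, was at least 2.55-fold lower (adjusted p = 1.8e-09), with 1 of 4 eMC empty arrays above its dip. The summed signal of the list was 168 to 407 in tumors and 1863 to 2582 in eMC empty, and no tumor was above its dip for Krt14 or Dsp.

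**Figure D5:**
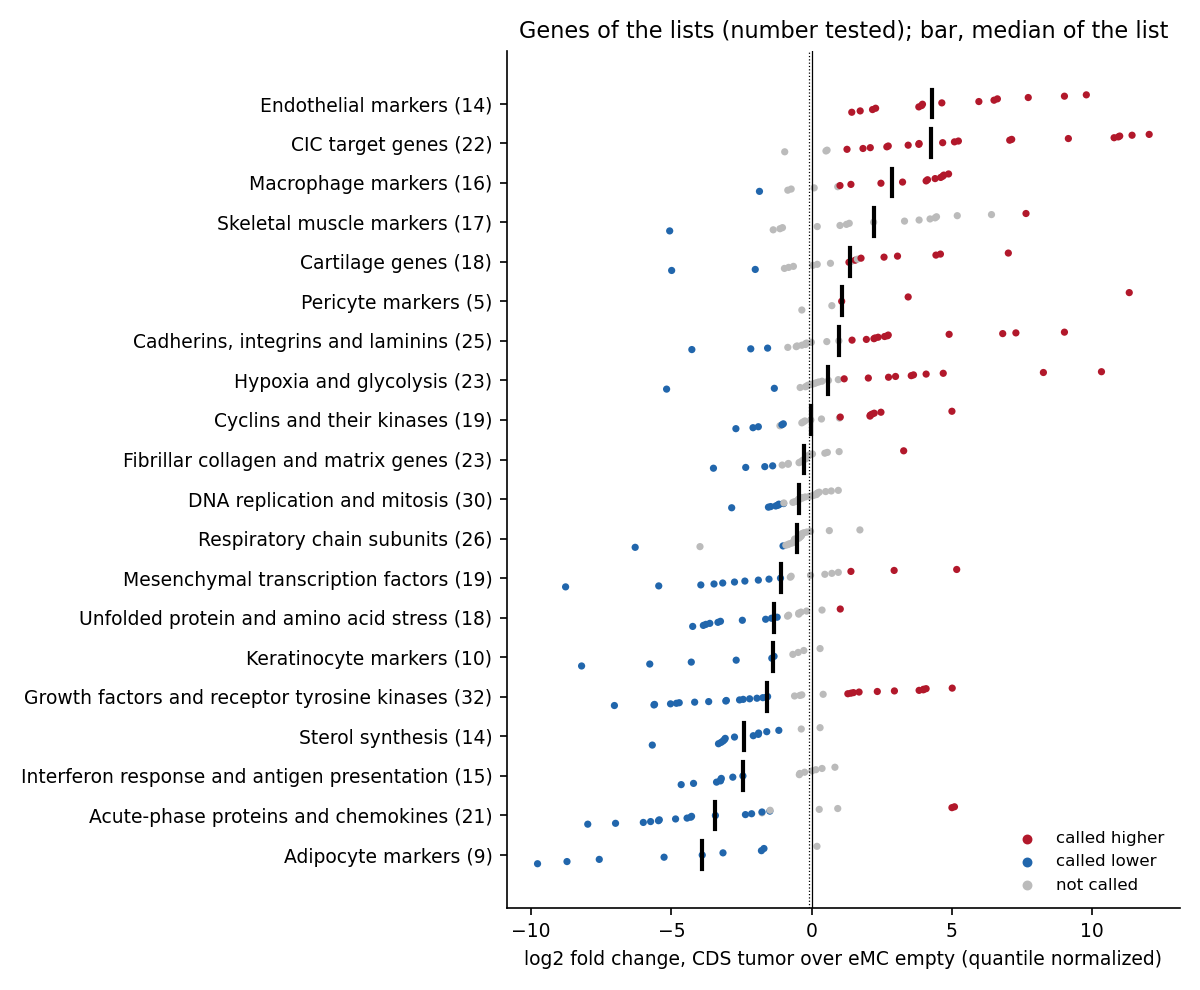
Log2 fold change of every tested gene in 20 of the 40 lists, one point per gene, red where called higher, blue where called lower and grey where not called, with the list median as a bar and the median of all genes (-0.10) as a dotted line. Endothelial markers (median 4.30) and CIC target genes (4.25) lie furthest to the right and adipocyte markers (-3.90) furthest to the left.

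The tumors differed most among themselves in skeletal muscle genes. The mean of 17 muscle markers was 13.23, 12.61 and 11.64 in CDS 3, 4 and 5, but 3.89, 3.86 and 4.51 in CDS 1, 2 and 6, while eMC empty lay between, at 6.09 to 6.15. The summed signal ran from 566 to 392624 in tumors against 13596 to 14462. Myh4, the fast myosin of mature fibers, measured 15.36, 14.91 and 13.94 in CDS 3, 4 and 5 and 2.41, 5.77 and 5.25 in CDS 1, 2 and 6, against 1.72, 1.91, 2.06 and 2.17. It was called higher, the mean of the tumors being at least 1.71-fold higher (adjusted p = 0.0188). Ckm, the muscle creatine kinase, and Tnnt3, the fast troponin T, had the same 3 high tumors, with 12.97 to 15.09 and 13.20 to 15.01, and were not called (adjusted p = 0.133 and 0.681). Myog, which switches on muscle differentiation, was expressed in eMC empty at 10.99, 10.96, 10.82 and 10.78, and measured 8.48, 8.61 and 9.59 in CDS 3, 4 and 5 and 3.16, 2.30 and 2.81 in the others, a difference of -5.06 ± 1.43 (adjusted p = 0.0106). Without CDS 3, 4 and 5, an alternative added after seeing the data, 10 muscle markers fell and 1 rose (1 and 1 with all tumors), Tnnt3 differed by -4.20, and over all genes 2184 rose and 2303 fell. Whether muscle fibers of the host or muscle differentiation in the tumor supplied these transcripts was not tested.

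CDS 6 stood apart in the opposite sense, with low matrix and macrophage genes. Dcn, a small proteoglycan of connective tissue, measured 8.93 there and 11.99 to 13.21 in the other tumors, against 14.38, 14.42, 14.40 and 14.43 in eMC empty. F13a1, a transglutaminase of resident macrophages, measured 3.15 in CDS 6 and 9.20 to 12.04 in the others against 2.85, 3.54, 2.81 and 2.73, so its values overlapped those of eMC empty although it was called higher (at least 1.85-fold, adjusted p = 0.00191). The mean of the 16 macrophage markers was 7.79 in CDS 6 and at most 10.50 in the other tumors. CDS 6 also had the largest Actb excess, 1.28, and the part of that in its low values was not tested. Among the 22 tested CIC target genes the SD over the 6 tumors ran from 0.11 for Vgf, near the top of the signal range, to 1.04 for Maff, with 0.17 for Etv5, 0.19 for Etv1, 0.48 for Etv4 and 0.66 for Crh.

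The levels in the other 2 groups place the main genes. Between CDS and ES tumors 33.1% of tested genes were called (16.9% higher and 16.1% lower in CDS) and between CDS tumors and eMC CIC-DUX4 37.1% (16.8% and 20.2%). Against ES tumors the PEA3 factors Etv1 and Etv5 were higher in CDS by 6.17 ± 0.48 (Etv1, adjusted p = 3.51e-07) and 4.46 ± 0.47 (Etv5, adjusted p = 5.16e-06); Etv4 averaged 4.12 in ES tumors, under the lowest dip there, and was called too (adjusted p = 3.87e-09). Spx, Muc5ac, Crh and Kpna7 averaged 3.07, 3.13, 1.66 and 2.80 in ES tumors, beside 2.44, 3.17, 1.63 and 2.53 in eMC empty. The vessel genes Cdh5 and Rgs5 averaged 7.81 and 12.74 in ES tumors, beside 3.07 and 3.26 in eMC empty, and were higher in CDS by 4.28 ± 0.48 (adjusted p = 1.07e-05) and 1.84 ± 0.30 (adjusted p = 0.000251). C1qa and Hba-a1 averaged 12.65 and 13.69 in ES tumors and were not called between the tumors (CDS minus ES of -0.65 ± 0.43 and 0.19 ± 0.44, adjusted p = 0.249 and 0.76).

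Several genes low in CDS were low in ES tumors too. Cidea, Ucp1, Twist2 and Fgf7 averaged 3.03, 2.87, 2.56 and 3.17 in ES tumors and 2.68, 2.64, 2.44 and 3.23 in CDS, and none of them was called between the tumors. Pdgfra did not follow, at 8.68 in ES tumors and lower in CDS by 5.07 (SE 0.55, adjusted p = 6.99e-06). In eMC CIC-DUX4 at 48 hours the fat genes were still bright, Cidea at 12.56 and Ucp1 at 12.31. Of the highest genes, Vgf had reached a mean of 10.40 in those cells, from 3.30 in eMC empty, and was higher again in tumors by 4.93 ± 0.14 (adjusted p = 2.17e-10). Etv1 and Etv5 averaged 7.45 and 10.36 there, and the tumors were higher by 7.15 ± 0.12 and 4.26 ± 0.12. Spx, Muc5ac, Crh, Kpna7 and Etv4 averaged 3.28, 3.39, 1.71, 2.72 and 2.26 at 48 hours, beside 2.44, 3.17, 1.63, 2.53 and 2.11 in eMC empty. Comparisons with eMC empty and with eMC CIC-DUX4 share the 6 tumor arrays.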

How the data were processed

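Total RNA of 6 CDS tumors, 6 ES tumors, 4 eMC CIC-DUX4 samples and 4 eMC empty samples was hybridised as biotinylated cRNA to mouse Affymetrix PM arrays, 1 per sample, per the labels' protocols. The authors deposited log2 signals, made with MAS5 per the submitters' processing notes; its version and settings are not stated there. Each array's trimmed mean of linear signal, leaving out 2% at each end, was about 500 in the deposited values. The number of arrays limits the precision.

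The deposited log2 values were returned to linear signal, 1.42305 units were added (0.25 of the median of the array medians), and log2 values were quantile normalized over the 20 arrays. Of 45141 probe sets 104 controls were left out. Probe sets above the array median on at least 4 arrays passed (26897, of which 19542 had 1 symbol), and each gene was read from its probe set of highest mean. Symbols came from the platform annotation: 28898 probe sets had 1 symbol, 551 several and 15588 none, and 28689 matched RefSeq by Entrez number. Of 1821 called genes with several probe sets 107 had one called the other way. The test was limma 3.58.1 (eBayes with trend, R 4.3.3) on the 10 arrays of the comparison, with Benjamini-Hochberg adjustment over 12343 genes. The dip is the lowest density between the dim and bright signals of an array (bandwidth 0.35).

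Genes were named as the 12 highest and 12 lowest called without overlap, a list of genes of interest, the up to 3 called members per direction and list with the largest change, and the 10 called and 10 uncalled genes that varied most between tumors. Some CIC targets, cyclin inhibitors, Igf1r, Col3a1, Vim and the genes with promoters shown were named outside that rule, after their values were seen. The members and the 40 gene lists (581 of 751 distinct genes tested) were chosen with earlier results of these data known. Replicate numbers do not pair the groups: same-numbered arrays correlated at 0.013, 0.066 and 0.031 in their deviations. The test was tried on simulated data before use. Alternatives were other scalings, offsets, filters, probe set rules, fits and leaving out arrays. RefSeq promoter windows are of GRCm38.p6.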

Additional observations from a re-analysis of the deposited data

Results flagged for a closer look

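Named genes, gene list means and array measures were checked in 286 groups of 6 tumors or 4 eMC empty arrays. Of these groups 31 held an array whose gap to its neighbour was large against the range of the group. Chance gives about 1 in 20. Some of these genes were named because they varied most between tumors, so the 2 shares are not compared. CDS 6 lay apart most often. It was lowest for Aif1 (5.66, the others 7.79 to 8.98), C1qa (9.97, the others 11.99 to 12.85), Ccl8 (11.05, 13.61 to 14.59), F13a1 (3.15, 9.2 to 12.04), Dcn (8.93, 11.99 to 13.21), Col3a1 (14.64, 15.21 to 15.36) and Itgb3 (10.13, 11.24 to 11.7). It was highest for Cic (10.19, 8.14 to 8.91), Fli1 (13.68, 12.66 to 12.95), Col9a1 (14.82, 14.29 to 14.43), Per2 (12.96, 11.65 to 12.1) and Cdc14a (11.68, 9.79 to 10.38).

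CDS 2 was highest for the lipid genes Thrsp (11.8, the others 2.18 to 3.33), G0s2 (7.45, 3.04 to 4.59), Mrap (7.07, 2.17 to 3.6) and Pparg (5.05, 2.8 to 3.59), and for the vessel genes Plvap (13.59, 12.88 to 12.98) and Sox18 (11.13, 10.57 to 10.74). Of the other tumors, CDS 1 was lowest for Ccnd1 (14.94, 15.16 to 15.21) and Ddr2 (9.86, 11.09 to 11.63) and highest for Cnmd (4.37, 2.13 to 2.71), and CDS 3 was highest for Tac1 (2.21, 1.52 to 1.77).

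Gaps among eMC empty arrays were found for Adipoq in array 6 (13.52, the others 13.58), Cd163 in array 6 (2.28, 1.99 to 2.04), Hoxa7 in array 6 (3.93, 4.5 to 4.61), Cdkn2b in array 5 (9.13, 9.68 to 9.79), Cdh5 in array 5 (2.75, 3.13 to 3.21), F13a1 in array 5 (3.54, 2.73 to 2.85), Ucp1 in array 5 (11.49, 11.3 to 11.32) and Ccnd2 in array 7 (13.24, 13.21 to 13.22). The mean of the CIC target genes was 6.74 in array 4 and 6.62 to 6.64 in the other arrays.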

How the results depend on the processing

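On the values as deposited 717 genes fell in place of 2369, and after median scaling 562 rose and 379 fell in place of 2164 and 2369. These counts choose each gene's probe set on the scale tested, so they differ by a few genes from those with the probe sets kept. The counts of genes differing were 2564 as deposited in place of 4083 against ES tumors, and 2202 as deposited and 756 after median scaling in place of 4575 against eMC CIC-DUX4. Every other alternative kept the counts within 1.5 times: leaving out 1 array gave 2030 to 2199 genes higher and 2233 to 2492 lower, an offset of 16 gave 1792 and 1899, and array weights gave 2334 and 2449. Leaving out CDS 3, 4 and 5 (2184 and 2303), leaving out CDS 5 and 6 (2160 and 2234) and the alternatives of the comparisons with ES tumors and eMC CIC-DUX4 were chosen after seeing the data. A fit with the replicate number as a block, although the numbers do not pair the groups, gave 1976 and 2343. The Actb excess stayed between 0.53 and 0.73 on leaving out 1 array. Over the named genes and 26 alternatives, 3185 of 3354 results kept their direction and side of the threshold, 133 lost and 21 gained a call, and 15 changed sign. Those were, as deposited, Ccne1 (0.67), Cd14 (0.35), Itga3 (0.40) and Col3a1 (-0.45), and after median scaling Col3a1 (-1.16), Ewsr1 (-0.21), Hmga2 (-0.55) and Spry2 (-0.14). Col3a1, near 0 in the main result, was -0.11 with the replicate block, -0.01 without CDS 2 and -0.07 without CDS 3, 4 and 5, and ran from -0.01 to 0.14 without 1 array. Without CDS 3, 4 and 5 Ckm was -0.63 and Tnnt3 -4.20. The cause of these changes was not tested. The number of arrays (6 against 4) limits the precision, and 206 called genes lay in the dim population on all 10 arrays, where a difference has no firm size.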
